A study of Arabidopsis thaliana with 30 samples.

Results

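The genes described here encode 6 enzymes of flavonoid, anthocyanin and sinapate metabolism in Arabidopsis thaliana seedlings. They are DFR (AT5G42800), AT4G14090, UF3GT (AT5G54060), UGT78D2 (AT5G17050), AT1G06000 and UGT84A1 (AT4G15480). They were taken by name, as the probe sets of the Affymetrix ATH1 array that the platform's annotation matches to exactly 1 of them. Each gene had 1 probe set, so that 6 of 13513 probe sets matched to exactly 1 gene were members, and all 6 were tested among 22746 probe sets. No genome of the array's own build was used here, so that no coordinates or sequences are given.

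Flavonoids and sinapate esters both arise from phenylalanine and absorb ultraviolet light, and leaves make more of them in strong light. Dihydroflavonol reductase, encoded by DFR, commits a shared flavonoid precursor to anthocyanins, the red pigments, and the enzymes of AT4G14090 and UF3GT add glucose and xylose to them. UGT78D2 attaches glucose to flavonols and anthocyanidins, the enzyme of AT1G06000 attaches rhamnose to flavonols, and UGT84A1 makes the glucose esters of sinapate and related acids. All but DFR belong to the family of UDP-dependent glycosyltransferases, which move a sugar from a nucleotide carrier onto small molecules.

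Transcript levels were measured in whole seedlings without roots on 30 arrays, 3 biological replicates in each of 10 groups, which are 5 lines at 2 times. Every line has the Col-0 background. Wild type stands beside flu, whose mutation lets a chlorophyll precursor gather in darkness and give singlet oxygen in light, and mbs1-1, a mutant of the zinc-finger gene MBS1. RNAi-MBS2/mbs1-1 carries the same mutation with RNA interference against the related MBS2, and 35S:MBS1 overexpresses MBS1 from a viral promoter active in most plant tissues. All seedlings were 12 days old, grew on agar with sucrose and had spent 7 days in continuous dim light (10 µE). High light was withheld from the 0 h groups. The labels place 3 h of darkness before the 1000 µE of high light, both in µE per m² and s, and do not say whether the 0 h seedlings were harvested before or after it. A 3 h minus 0 h difference may therefore hold the effect of the dark period as well as that of time and high light, which cannot be told apart. Replicates are called biological in the labels without saying what separates them, and p-values measure only the spread between these samples. In whole seedlings, fewer cells of a type and less RNA per cell cannot be told apart.

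Array means lay between 6.70 and 6.77 on the log2 scale, apart from the brighter wild type 0 h replicate 1 (6.88) and mbs1-1 3 h replicate 1 (6.96). MBS1, MBS2 and FLU have no probe set of their own in the annotation used, so that the targeted genes were not analysed here and give no check of the labels. Of 10 shoot markers the 2 measured, PRK of the Calvin cycle and the antenna gene LHCB4.1, stood above 98.1% and 99.9% of probe sets by mean level. Of 12 root markers EXPA7 and EXPA18, expansins of root hairs, were measured, at 2.63 to 3.32 and 4.21 to 5.98 over all arrays. By mean level they stood above 7.2% and 32.5% of probe sets. From 0 h to 3 h LHCB4.1 fell in all 5 lines, by log2 changes of -0.51 to -0.70. PRK fell in flu (-0.90) and was not called in the other 4, at 0.02 to 0.21. EXPA18 was called lower in 4 lines, at -0.55 to -0.75, and stood at -0.43 in wild type, and EXPA7 was called in none. As a sign of RNA quality, actin probes at the 3' end exceeded those at the 5' end by 4.78 to 5.27 before and 4.76 to 5.37 after high light. At 3 h this excess was 5.17 to 5.26 in wild type. All arrays of flu (4.76 to 5.03), mbs1-1 (4.77 to 4.87) and RNAi-MBS2/mbs1-1 (4.85 to 5.08) lay below that, and 35S:MBS1 spanned 4.76 to 5.37. For GAPDH the excess was 1.96 to 2.52 before and 1.94 to 2.45 after high light. There each line overlapped with wild type at 3 h. The 25S rRNA control read 4.16 to 5.44 and 3.70 to 4.84. Their part in the results was not tested. Levels below are log2 signals, differences are log2 fold changes ± SE with n = 3 arrays per group, and a difference was called at a limma p adjusted over all 22746 probe sets below 0.05. Single levels are compared within a probe set only, and the percentiles among probe sets say how bright a probe set is, not how abundant a transcript is.

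**Figure D1:**
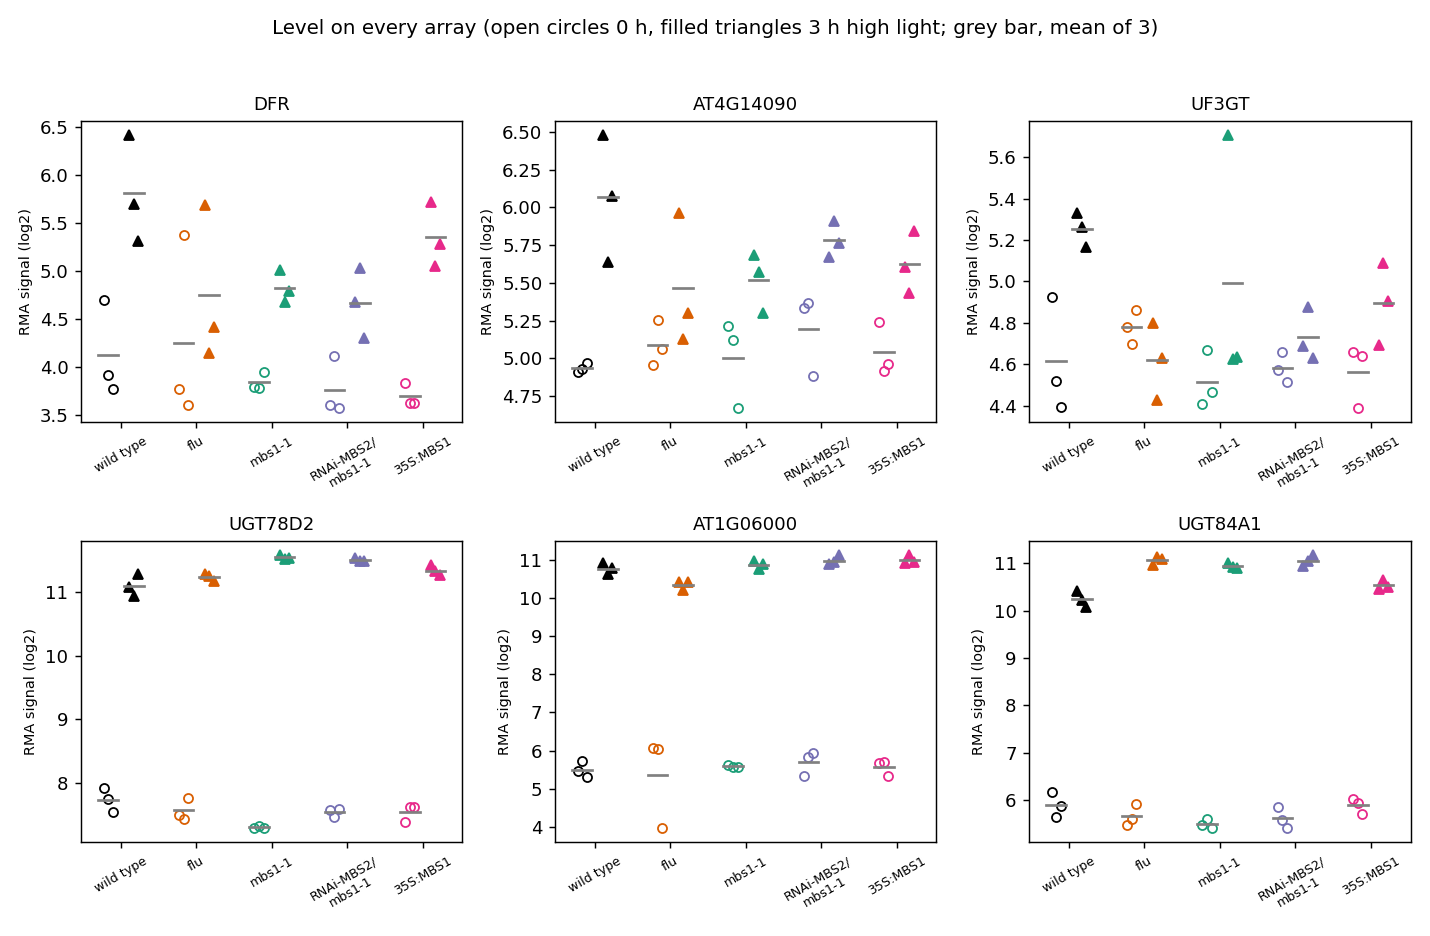
Level of each gene on each array (vertical axis, log2 RMA signal, one scale per panel) by line (horizontal axis), with open circles for 0 h, filled triangles for 3 h and a grey bar for the mean of 3 arrays. UGT78D2, AT1G06000 and UGT84A1 stand apart at 0 h and 3 h in each line, while DFR, AT4G14090 and UF3GT move less and have their highest 3 h mean in wild type.

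The step to high light raised all 6 genes in wild type. AT1G06000, UGT84A1 and UGT78D2 moved most. AT1G06000 read 5.47, 5.72 and 5.30 at 0 h and 10.92, 10.63 and 10.78 at 3 h. UGT84A1 read 6.17, 5.65 and 5.86 at 0 h and 10.42, 10.23 and 10.08 at 3 h. UGT78D2 read 7.92, 7.76 and 7.54, and then 11.07, 10.95 and 11.29. In each of these genes every 3 h array lay far above every 0 h array. The changes were 5.28 ± 0.31 for the rhamnosyltransferase gene AT1G06000 (38.8-fold, adjusted p = 3.73e-13), 4.35 ± 0.14 for UGT84A1 (20.4-fold, adjusted p = 4.63e-18) and 3.36 ± 0.11 for UGT78D2 (10.3-fold, adjusted p = 5.18e-18). They ranked 12th, 33rd and 82nd from the highest among the 22746 probe sets.

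DFR, AT4G14090 and UF3GT rose by less. They are called the anthocyanin genes here, although UGT78D2 acts on anthocyanidins as well as flavonols and is not counted with them. DFR read 4.70, 3.92 and 3.77 at 0 h and 6.42, 5.70 and 5.31 at 3 h, a change of 1.68 ± 0.38 (3.21-fold, adjusted p = 0.000576). AT4G14090 read 4.91, 4.93 and 4.97, and then 6.48, 5.64 and 6.08, a change of 1.13 ± 0.20 (2.19-fold, adjusted p = 4.22e-05). UF3GT read 4.92, 4.52 and 4.39, and then 5.33, 5.26 and 5.17, a change of 0.64 ± 0.19 (1.56-fold, adjusted p = 0.00795). The 0 h and 3 h arrays did not overlap in any of these genes either. Over all probe sets 45.5% were called in this comparison, 21.1% higher and 24.4% lower, with a median change of -0.07, against 6 of 6 called higher and a median of 2.52 here. By mean level DFR, the dimmest member, stood above 28% of probe sets, AT4G14090 above 34.9% and UGT78D2 above 82.3%. Whether dim signal narrowed the smaller changes was not tested.

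**Figure D2:**
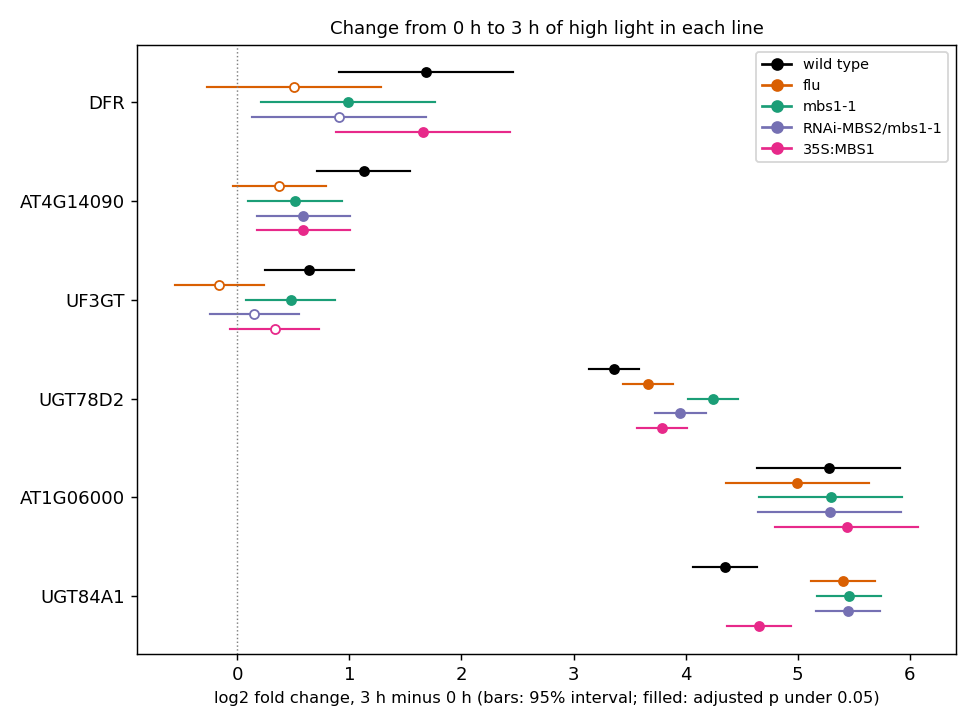
Change from 0 h to 3 h of high light (horizontal axis, log2 fold change with 95% interval) of each gene (vertical axis) in each line (colour), with filled points for an adjusted p under 0.05. AT1G06000, UGT84A1 and UGT78D2 lie between 3.36 and 5.46 in all lines, and UF3GT lies between -0.16 and 0.64.

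The other lines were taken through the same step. In 35S:MBS1, RNAi-MBS2/mbs1-1, flu and mbs1-1, in that order, AT1G06000 rose by 5.44, 5.28, 4.995 and 5.29 (SE 0.31 each). UGT78D2 rose by 3.79, 3.95, 3.67 and 4.24 (SE 0.11 each), and UGT84A1 by 4.65, 5.45, 5.40 and 5.46 (SE 0.14 each). None of these 12 changes had an adjusted p above 7.67e-13, and in none did the 0 h and 3 h arrays overlap.

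The anthocyanin genes passed in fewer lines. DFR rose in mbs1-1 (0.99 ± 0.38, adjusted p = 0.0353) and 35S:MBS1 (1.66 ± 0.38, adjusted p = 0.000664), and had changes of 0.91 ± 0.38 in RNAi-MBS2/mbs1-1 (adjusted p = 0.0517) and 0.50 ± 0.38 in flu (adjusted p = 0.295). AT4G14090 rose in 35S:MBS1 (0.59 ± 0.20, adjusted p = 0.0186), RNAi-MBS2/mbs1-1 (0.59 ± 0.20, adjusted p = 0.019) and mbs1-1 (0.51 ± 0.20, adjusted p = 0.0401), and stood at 0.37 ± 0.20 in flu (adjusted p = 0.135). UF3GT rose in mbs1-1 (0.48 ± 0.19, adjusted p = 0.0474) and stood at 0.15, 0.33 and -0.16 in RNAi-MBS2/mbs1-1, 35S:MBS1 and flu (SE 0.19 each, adjusted p of 0.555, 0.169 and 0.535). In flu 3 of the 6 genes were called, all higher, where 48.1% of all probe sets were called, 23% higher and 25.1% lower. In mbs1-1 6 were called higher, where 44.6% of all were called, 25.9% higher and 18.8% lower. In RNAi-MBS2/mbs1-1 4 were called higher, where 45.6% were called, 21.2% higher and 24.5% lower. In 35S:MBS1 5 were called higher, where 47% were called, 22% higher and 25% lower.

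The mbs1-1 calls of these 3 genes lay close to the threshold, and for UF3GT the size of the change came from 1 array. UF3GT read 5.71 on the brighter mbs1-1 3 h replicate 1 and 4.63 and 4.64 on the other two, against 4.41 to 4.67 at 0 h. Without that array its change was 0.12 (adjusted p = 0.584), that of DFR 0.89 (adjusted p = 0.107) and that of AT4G14090 0.43 (adjusted p = 0.143). Without mbs1-1 0 h replicate 3 the changes were 0.45 for UF3GT (adjusted p = 0.108), 1.04 for DFR (adjusted p = 0.0565) and 0.35 for AT4G14090 (adjusted p = 0.22). DFR also lost its call without mbs1-1 0 h replicate 1 or 2 or 3 h replicate 3, at changes of 0.96, 0.96 and 1.004 that were as large as with all arrays (adjusted p of 0.0805, 0.0808 and 0.0634). UF3GT lost it without 0 h replicate 1 (0.42, adjusted p = 0.134) and AT4G14090 without 3 h replicate 2 (0.49, adjusted p = 0.0919). In mbs1-1 DFR lost its call in 8 of 12 alternatives, among them quantile normalization (0.85, adjusted p = 0.0618) and centring (0.90, adjusted p = 0.0519). In RNAi-MBS2/mbs1-1 DFR was called in 7 of 12. These were without 0 h replicate 2 (1.08, adjusted p = 0.0419) or 3 h replicate 3 (1.09, adjusted p = 0.041), and 5 others. The 5 were quantile normalization (0.0288), centring (0.0482), the replicate block (0.0381), only the compared arrays (0.00896) and both brighter arrays left out (0.0496). AT4G14090 lost its call in that line without 0 h replicate 3 (0.44, adjusted p = 0.113) or 3 h replicate 2 (0.52, adjusted p = 0.0692). In 35S:MBS1 it lost it without 0 h replicate 2 or 3 or 3 h replicate 3, at changes of 0.53, 0.55 and 0.48 (adjusted p of 0.0678, 0.0579 and 0.0905). The 0 h and 3 h arrays of UF3GT did not overlap in 35S:MBS1, unlike in mbs1-1. Its change there was called without both brighter arrays (0.33, adjusted p = 0.0208), and in no other alternative.

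Single flu arrays stood apart for both DFR and AT1G06000. DFR read 3.77, 5.37 and 3.60 in flu at 0 h and 5.69, 4.15 and 4.42 at 3 h, so that the times overlapped. Its change in flu was 1.07 and called without 0 h replicate 2 (adjusted p = 0.0132), and 0.03 without 3 h replicate 1 (adjusted p = 0.954). AT1G06000 read 6.07, 6.04 and 3.96 in flu at 0 h and 10.42, 10.20 and 10.43 at 3 h. Without 0 h replicate 3 its rise was 4.30 (adjusted p = 1.53e-16). AT4G14090 was called in flu without 3 h replicate 2 (0.54, adjusted p = 0.045), and stood at 0.12 without 3 h replicate 1 (adjusted p = 0.668).

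UGT84A1 was higher than in wild type in 3 lines under high light. Its 3 h arrays read 10.96, 11.12 and 11.09 in flu. Those of mbs1-1 read 11.01, 10.92 and 10.91, and those of RNAi-MBS2/mbs1-1 read 10.95, 11.04 and 11.18. In 35S:MBS1 they read 10.45, 10.65 and 10.50, above the 10.42, 10.23 and 10.08 of wild type. The order of the means was wild type (10.24), 35S:MBS1 (10.53), mbs1-1 (10.95), RNAi-MBS2/mbs1-1 (11.06) and flu (11.06), and the last 3 overlapped while the first 2 overlapped with no neighbour. The difference from wild type was 0.82 ± 0.14 for flu (1.76-fold, adjusted p = 0.000127). It was 0.81 ± 0.14 for RNAi-MBS2/mbs1-1 (1.76-fold, adjusted p = 0.00707) and 0.70 ± 0.14 for mbs1-1 (1.63-fold, adjusted p = 0.0203). In 35S:MBS1 the difference was 0.29 ± 0.14 and not called (adjusted p = 1, 95% interval 0.01 to 0.58). Of both shoot markers PRK was lower in flu at 3 h (-0.74 ± 0.14, adjusted p = 0.000371) and LHCB4.1 was not called, and their part in the flu differences was not tested.

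The response itself, 3 h minus 0 h, was then set against that of wild type. For UGT84A1 the flu response was larger by 1.05 ± 0.20 (adjusted p = 0.001), that of mbs1-1 by 1.11 ± 0.20 (adjusted p = 0.0264) and that of RNAi-MBS2/mbs1-1 by 1.10 ± 0.20 (adjusted p = 0.0359). In 35S:MBS1 the response differed from that of wild type by 0.30 ± 0.20 (adjusted p = 1). All probe sets together had a median difference of 0.14 in mbs1-1, and relative to it UGT84A1 stood at 0.96. These comparisons share the wild type arrays. In flu 1 of the 6 genes was called, where limma called 8.41% of all probe sets. The count was 2 for mbs1-1, where 0.0528% of all were called, and 1 for RNAi-MBS2/mbs1-1, where 0.0528% were. For 35S:MBS1 limma called 0 of the 6 genes and 0% of all probe sets. In that line 1 of the 6 had an unadjusted p under 0.05.

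The flu differences of UGT84A1 were called under every alternative tried, and those of both mbs1-1 lines were not. At 3 h the mbs1-1 call was lost without its replicate 1 or 2 (adjusted p of 0.121 and 0.0542) or without replicate 2 or 3 of wild type (0.108 and 0.0638), and that of RNAi-MBS2/mbs1-1 without its replicate 3 (0.0842). The response call was lost in mbs1-1 without any of its 0 h arrays, its 3 h replicate 1, wild type 0 h replicate 1 or wild type 3 h replicate 2, at 0.0619 to 0.119. RNAi-MBS2/mbs1-1 lost it without its 0 h replicate 2, its 3 h replicates 1 or 3, wild type 0 h replicate 1 or wild type 3 h replicate 2, at 0.0683 to 0.134. The size of these 3 h differences stayed between 0.62 and 0.90 over all settings, and where a single left-out array ended the call of a response, that difference was 0.96 to 1.16.

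UGT78D2 showed a smaller difference of the same sign. The 3 h arrays of mbs1-1 read 11.59, 11.52 and 11.54 and those of RNAi-MBS2/mbs1-1 read 11.53, 11.49 and 11.49, above all 3 wild type arrays. Those of flu (11.29, 11.25 and 11.17) and 35S:MBS1 (11.42, 11.33 and 11.26) overlapped with wild type. At 0 h the mbs1-1 arrays, at 7.30, 7.33 and 7.29, lay below those of each other line. At 3 h mbs1-1 differed from wild type by 0.45 ± 0.11 (adjusted p = 0.0674) and RNAi-MBS2/mbs1-1 by 0.40 ± 0.11 (adjusted p = 0.199), not called. Without wild type 3 h replicate 3 the mbs1-1 difference was 0.54 and called (adjusted p = 0.0272). The response was larger in mbs1-1 than in wild type by 0.88 ± 0.15 (adjusted p = 0.0262), 0.73 relative to the median of all probe sets. That call was lost without any 1 of 8 of the 12 arrays, at adjusted p of 0.0541 to 0.136, while the difference stayed at 0.79 to 0.89. The arrays were all those of mbs1-1 at 0 h, mbs1-1 3 h replicate 1, and replicates 1 and 2 of wild type at each time. In RNAi-MBS2/mbs1-1 the response was larger by 0.59 ± 0.15 and not called (adjusted p = 0.237).

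AT1G06000 was at a like level in 4 lines under high light. Its 3 h means were 11.01 (35S:MBS1), 10.99 (RNAi-MBS2/mbs1-1), 10.88 (mbs1-1) and 10.77 (wild type), with overlap between neighbours. The flu mean of 10.35 lay lowest, and its arrays, 10.20 to 10.43, lay below the lowest wild type array at 10.63. The difference from wild type was -0.42 ± 0.31 (adjusted p = 0.408, 95% interval -1.06 to 0.22), and the difference of the responses was -0.28 ± 0.44 (adjusted p = 0.809). Without flu 0 h replicate 3, the array at 3.96, the latter was -0.98 and called (adjusted p = 0.00412). That array also enters the SE of the 3 h difference, which pools the spread of all groups. The SD was 1.21 in flu at 0 h, against 0.13 in flu and 0.15 in wild type at 3 h. Over the settings scored for it, the limma adjusted p of the 3 h difference ran from 0.0552 to 0.608. Leaving out flu 0 h replicate 3 alone was not among them, and its part in that adjusted p was not tested.

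**Figure D3:**
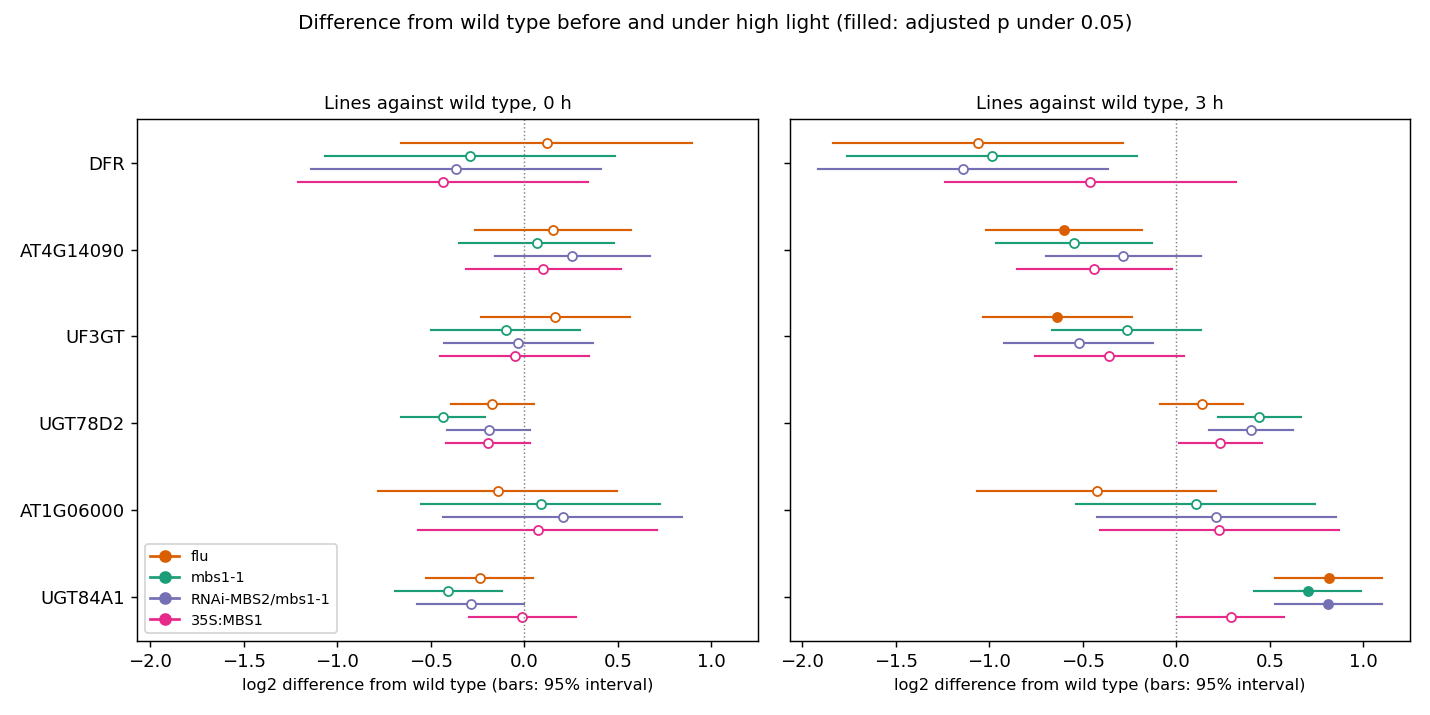
Difference of each line from wild type (horizontal axis, log2 with 95% interval) for each gene (vertical axis) at 0 h (left) and 3 h (right), with filled points for an adjusted p under 0.05. At 3 h UGT84A1 lies at 0.70 to 0.82 in flu and both mbs1-1 lines, and DFR, AT4G14090 and UF3GT lie between -1.14 and -0.26 in all lines.

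DFR, AT4G14090 and UF3GT had their highest 3 h mean in wild type, in contrast to UGT84A1 and UGT78D2, whose lowest 3 h mean was there. The 3 h arrays read 5.01, 4.67 and 4.79 for DFR in mbs1-1 and 4.68, 5.03 and 4.30 with RNAi against MBS2. In 35S:MBS1 they read 5.73, 5.05 and 5.28. Both groups with the mbs1-1 mutation lay below every wild type array (5.31 to 6.42) and 35S:MBS1 overlapped with them. DFR differed from wild type by -1.06 ± 0.38 in flu (adjusted p = 0.0515) and -0.46 ± 0.38 in 35S:MBS1 (adjusted p = 1). RNAi-MBS2/mbs1-1 differed by -1.14 ± 0.38 (adjusted p = 0.397) and mbs1-1 by -0.99 ± 0.38 (adjusted p = 0.302). None was called. The flu difference lay at the threshold. It was called without flu 3 h replicate 1 (-1.53, adjusted p = 0.00623) or wild type 3 h replicate 3 (-1.31, adjusted p = 0.0348), and stood at -0.76 without flu 3 h replicate 2 (adjusted p = 0.226) and -0.75 without wild type 3 h replicate 1 (adjusted p = 0.254). At -1.06 to -1.07 it was also called after quantile normalization (0.0397), after centring (0.0458), with the replicate block (0.0372) and without both brighter arrays (0.0494).

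AT4G14090 was lower than wild type in flu, at 5.96, 5.13 and 5.30 against 6.48, 5.64 and 6.08, with overlap. The difference was -0.60 ± 0.20 (1.51-fold, adjusted p = 0.0388). UF3GT was lower in flu too, at 4.80, 4.43 and 4.63 against 5.33, 5.26 and 5.17, without overlap (-0.64 ± 0.19, 1.55-fold, adjusted p = 0.0217). In the other lines both genes stood between -0.26 and -0.55 and were not called. UF3GT also lay below all wild type arrays in RNAi-MBS2/mbs1-1 (-0.52, limma unadjusted p = 0.0122, adjusted p = 0.557) and 35S:MBS1 (-0.36, unadjusted p = 0.0754). In mbs1-1 it overlapped with them (-0.26). AT4G14090 overlapped with wild type in each line. Its difference was -0.55 in mbs1-1 (limma unadjusted p = 0.0119, adjusted p = 0.28), close to that of flu (unadjusted p = 0.00647). AT4G14090 lost its call without replicate 2 or 3 of flu, at -0.43 and -0.52 (adjusted p of 0.188 and 0.151), or replicate 1 or 3 of wild type, at -0.39 and -0.59 (0.251 and 0.0901). UF3GT lost it at sizes near that with all arrays, -0.54 and -0.64 without replicate 2 or 3 of flu (0.0875 and 0.056) and -0.60 and -0.63 without replicate 1 or 2 of wild type (0.0731 and 0.0596). Set against the wild type response, that of flu was -0.80 ± 0.27 for UF3GT (adjusted p = 0.0701), -0.75 ± 0.29 for AT4G14090 (adjusted p = 0.109) and -1.18 ± 0.53 for DFR (adjusted p = 0.197), none called. UF3GT was called in 5 alternatives, at -0.91 after quantile normalization (adjusted p = 0.00915), -0.88 after centring (0.0179), -0.80 with only the compared arrays (0.0488), -0.96 without both brighter arrays (0.00132) and -0.96 without wild type 0 h replicate 1 alone (0.0383). With another single array left out it was not called, at -0.69 to -0.89. AT4G14090 was called after quantile normalization (-0.89, adjusted p = 0.0451) and without flu 3 h replicate 1 (-1.003, adjusted p = 0.0238) or wild type 3 h replicate 2 (-0.97, adjusted p = 0.0379), and DFR without flu 3 h replicate 1 (-1.65, adjusted p = 0.0471).

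At 3 h 3 of the 6 genes were called in flu, 1 higher and 2 lower, where 18.3% of all probe sets were called, 8.66% higher and 9.65% lower. In mbs1-1 1 gene was called, UGT84A1, where 0.435% of all were called and 0.281% were higher. In RNAi-MBS2/mbs1-1 UGT84A1 alone was called as well, where 0.22% of all were called and 0.0659% were higher. In 35S:MBS1 limma called 0 of the 6 and 0.0176% of all, and 3 of the 6 had an unadjusted p under 0.05.

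Before high light the 5 lines were closer together. The 0 h means of the 5 lines spanned 0.26 for AT4G14090, 0.27 for UF3GT, 0.35 for AT1G06000, 0.41 for UGT84A1, 0.43 for UGT78D2 and 0.55 for DFR. In limma 0 of the 6 genes were called against wild type in each of the 4 lines, where the shares of all probe sets called were 0.506% (flu), 0.0176% (35S:MBS1), 0.0308% (mbs1-1) and 0.0308% (RNAi-MBS2/mbs1-1). In mbs1-1 2 of the 6 had an unadjusted p under 0.05 and in the other lines 0. They were UGT78D2 (-0.43 ± 0.11, adjusted p = 0.264) and UGT84A1 (-0.41 ± 0.14, adjusted p = 0.47), and the mbs1-1 arrays of both lay below all wild type arrays. Neighbours in the order of 0 h means overlapped in every gene, except that mbs1-1 lay below 35S:MBS1 for UGT78D2.

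Loss and gain of MBS1 were also set against each other. Under high light 35S:MBS1 differed from mbs1-1 by -0.41 ± 0.14 in UGT84A1 (adjusted p = 0.2), -0.21 ± 0.11 in UGT78D2 (adjusted p = 0.423) and 0.53 ± 0.38 in DFR (adjusted p = 0.58), and in these 3 genes the arrays of both lines did not overlap. The other 3 genes stood between -0.10 and 0.13. The response of UGT84A1 differed between both lines by -0.81 ± 0.20 (adjusted p = 0.101, unadjusted p = 0.000376). In limma 0 of the 6 genes were called at either time or in the responses, where 0.0352% of all probe sets were called at 0 h, 0.123% at 3 h and 0.0132% in the responses, and 2, 1 and 2 of the 6 had an unadjusted p under 0.05. RNAi-MBS2/mbs1-1 and mbs1-1 differed by -0.26 to 0.26 at 3 h over the 6 genes, with 0 called and 0 at an unadjusted p under 0.05 in limma. At 0 h they differed by -0.08 to 0.24, with 0 called and 1 under that p. Of all probe sets 0.00879% and 0.0044% were called between them at 3 h and 0 h, and 0% between their responses, where 0 of the 6 had an unadjusted p under 0.05.

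Further genes of these pathways were read from lists of enzymes and regulators, of which 13 of 68 had a probe set of their own. None of the 9 general phenylpropanoid genes was among them. In wild type 8 of the 13 rose and 1 fell, where 21.1% of all probe sets were called higher and 24.4% lower, with a median of 0.57 against -0.07 over all probe sets, and the counts were 8 and 1 in each of the other 4 lines as well. CHIL, which helps chalcone synthase keep to the flavonoid path, rose by 3.89 ± 0.21, from 7.45 ± 0.12 (SD) to 11.34 ± 0.05 (SD), adjusted p = 1.08e-13. BAN, which makes precursors of seed coat tannins, stood at -0.10 ± 0.19 (adjusted p = 0.716). Among 3 genes that decorate flavonoids, UGT78D1, a flavonol rhamnosyltransferase, rose by 1.88 ± 0.19 (adjusted p = 7.27e-09) and UGT78D3, a flavonol arabinosyltransferase, by 1.39 ± 0.16 (adjusted p = 6.82e-08). The anthocyanin malonyltransferase gene AT5MAT stood at 0.34 ± 0.18 (adjusted p = 0.129) and was not called in the other lines either, at 0.01 to 0.17.

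Of 22 regulators only HYH was measured, a transcription factor related to HY5 that acts in light responses, and it rose by 1.38 ± 0.14 (adjusted p = 1.25e-08). Of 7 measured sinapate and hydroxycinnamate genes 4 rose and 1 fell, beside the same 21.1% and 24.4% of all probe sets. UGT72E1, which adds glucose to lignin precursors, fell by 1.74 ± 0.17 on the log2 scale (log2 change -1.74, adjusted p = 5.35e-09). UGT84A3 rose by 1.38 ± 0.17 (adjusted p = 2.38e-07), UGT84A4 by 0.68 ± 0.14 (adjusted p = 0.000227) and HCT, which makes the shikimate esters on the way to sinapate, by 0.57 ± 0.10 (adjusted p = 4.8e-05). Of the 13 genes 3 were called between flu and wild type at 3 h, near the 18.3% of all probe sets called there. CHIL (-0.72 ± 0.21, adjusted p = 0.0184) and UGT78D3 (-0.54 ± 0.16, adjusted p = 0.0196) were lower in flu and UGT84A3 (0.57 ± 0.17, adjusted p = 0.0197) was higher. CHIL was lower in flu at 0 h too (-1.11 ± 0.21, adjusted p = 0.0106), and its responses in flu and wild type were 4.28 and 3.89. None of the 13 was called between wild type and the other lines at either time.

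**Figure D4:**
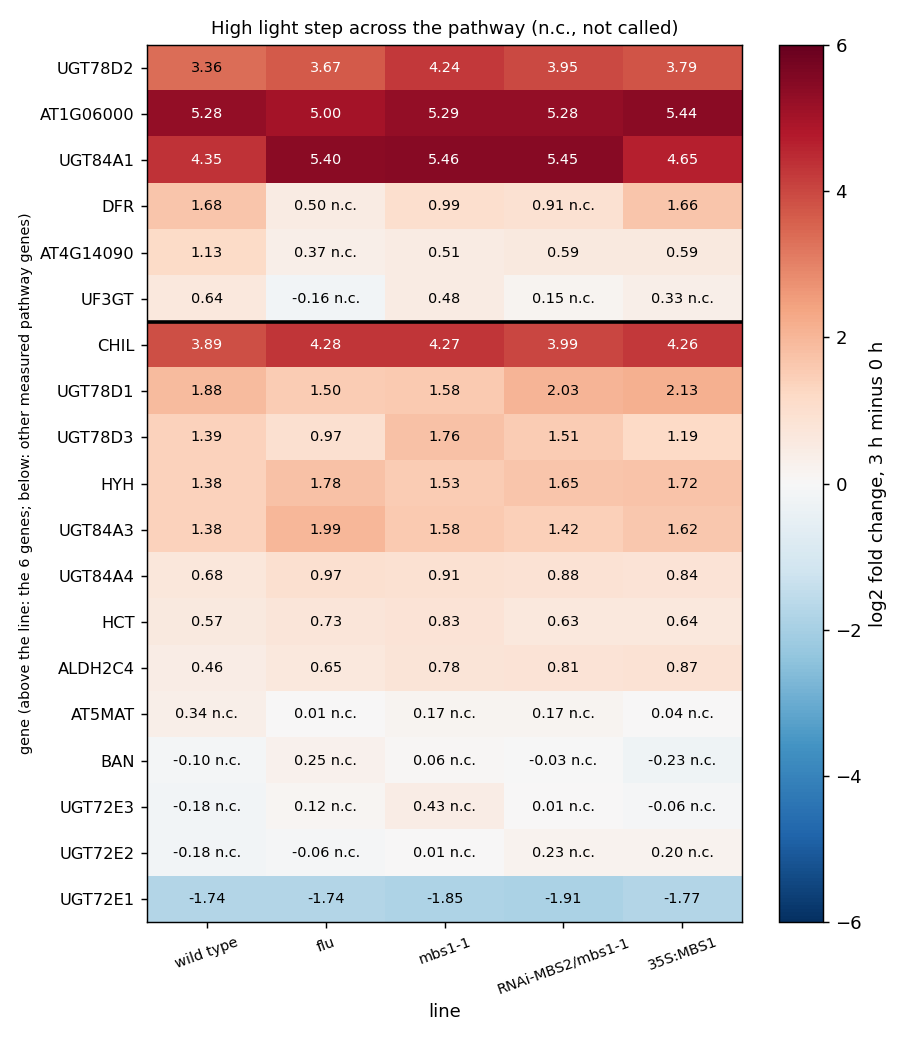
Change from 0 h to 3 h (colour and printed number, log2 fold change) of the 6 genes, above the black line, and of 13 other measured pathway genes, below it, in each line (horizontal axis), with n.c. for changes that were not called. CHIL lies near the 3 strongly raised members at 3.89 to 4.28, and UGT72E1 is called lower in all lines.

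UGT84A1 stands beside its relatives UGT84A3 and UGT84A4 in the RefSeq annotation of TAIR10.1, with 0 genes between neighbours, and the 3 encode like enzymes. Their wild type changes of 4.35, 1.38 and 0.68 differed in size. Differences of the responses from wild type were 1.05, 0.62 and 0.29 in flu for UGT84A1, UGT84A3 and UGT84A4, in that order. For mbs1-1 they were 1.11, 0.21 and 0.23, and for RNAi-MBS2/mbs1-1 1.10, 0.05 and 0.20. Those of UGT84A3 and UGT84A4 were not called (adjusted p of 0.126 to 0.983), and their difference from UGT84A1 was not tested. UGT78D2 lies 1 gene away from UGT78D3, with wild type changes of 3.36 and 1.39. Whether probes of one gene also bind transcripts of its relatives was not tested.

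The genes whose 10 group means ran most like those of each member were sought among 2527 other genes with group means that vary by an SD of at least 0.5. For UGT84A1 they were COR15B, a cold-regulated chloroplast protein gene (Pearson r = 0.999), AT1G51090 (0.998) and AT1G18660 (0.997). For UGT78D2 they were AT5G01260 (0.999), AT5G42760 (0.998) and AT4G36530 (0.998), and for AT1G06000 they were AT3G24190, AT2G37990 and AT3G44450 (0.998 each). With 972, 974 and 978 genes above an r of 0.9 for these members, such a pattern was common. DFR was most like AT5G59670 (0.965), AT1G28570 (0.942) and AT1G05540 (0.926), with 16 genes above 0.9. AT4G14090 was most like AT5G54720, the transcription factor gene WRKY53 (0.958 each) and OCT1 (0.956), with 195 above 0.9. UF3GT was most like AT3G12910 (0.910), the only gene above 0.9, the trichome patterning gene TRY (0.871) and AT3G30730 (0.863).

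Among the members themselves the group means of UGT78D2, AT1G06000 and UGT84A1 had r of 0.991 to 0.997 with each other, and those of the anthocyanin genes 0.795 to 0.892. With the first 3, DFR had r of 0.813 to 0.855, AT4G14090 0.854 to 0.897 and UF3GT 0.595 to 0.657. All these values rest on 10 points that share the contrast of 0 h and 3 h, and they are descriptions across groups.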

How the data were processed

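The authors deposited 1 log2 signal per probe set and array, and the submitters' processing notes name RMA and affy. Tool versions and the set of arrays normalized at once were not given in these sources. Scans and detection calls were not used, so that which dim signals lie above background is unknown. Of 22810 probe sets 64 controls were left out of the tests. Of the rest, 13513 were matched to exactly 1 gene by GEO's platform annotation, 503 to several and 8730 to none, and symbols and loci were joined by gene ID to RefSeq's TAIR10.1 table.

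Groups followed the sample titles. In limma 3.58.1 under R 4.3.3, the 30 arrays entered 1 model of 10 group means (lmFit, contrasts.fit, eBayes; 20 residual degrees of freedom per probe set, tests two-sided), with Benjamini-Hochberg adjustment over 22746 probe sets and a call at an adjusted p under 0.05. The 23 comparisons set 3 h against 0 h per line, lines against wild type and against mbs1-1 at each time, and differences of responses. Within groups arrays correlated at 0.983 to 0.996, no 2 arrays were identical, and the median residual SD was 0.200. The number of arrays limits the precision.

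The members, lists and comparisons were chosen with earlier results of these data known. Named genes are the 6 members and the 3 most alike genes per member. Of each list they are up to 4 called genes with the largest wild type change, or else the 1 with the smallest p. BAN, AT5MAT, ALDH2C4, UGT72E2 and UGT72E3 complete their lists in the text or plot, as PRK and EXPA7 do for the markers. Lists were given by counts, with no test. Alternatives were only the compared arrays, a replicate block, a minimum mean of 5, quantile normalization, centring on array medians, a trended and robust prior, and each array left out. A left-out array was scored only for the comparisons that use its group. Leaving out both brighter arrays was added after seeing the data. In simulated data over 22746 probe sets, 200 were raised on the wild type 3 h arrays. In the wild type step 10 of 50 changes of size 0.5, 42 of 50 of size 1, 49 of 50 of size 2 and 50 of 50 of size 4 were recovered, with 12 false calls. In the real data 45.5% of probe sets were called in that step. The adjustment depends on this share, so these rates do not give the power of the real comparison. Plots used Python 3.11.15 and matplotlib 3.10.9.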

Additional observations from a re-analysis of the deposited data

Results flagged for a closer look

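A larger response than in wild type, by limma's test of the difference itself, singled out 4 results. For UGT84A1 the change from 0 h to 3 h exceeded that of wild type by 1.05 in flu, 1.11 in mbs1-1 and 1.10 in RNAi-MBS2/mbs1-1 on the log2 scale. For UGT78D2 it exceeded that of wild type by 0.88 in mbs1-1. All 4 share the wild type arrays, and each mbs1-1 value holds the brighter mbs1-1 3 h replicate 1 and the brighter wild type 0 h replicate 1. With both brighter arrays left out the mbs1-1 values were 0.94 for UGT84A1 (adjusted p = 0.275) and 0.77 for UGT78D2 (adjusted p = 0.258). The RNAi-MBS2/mbs1-1 value of UGT84A1, which also holds the brighter wild type array, was then 0.96 and not called (adjusted p = 0.0922).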

How the results depend on the processing

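Of 138 member results (6 genes in 23 comparisons) 33 were called, and 21 of these kept their call under every alternative tested. Among the 21 are the changes of UGT78D2, AT1G06000 and UGT84A1 in all 5 lines. No called value changed its sign, and 10 of 105 results that were not called were called somewhere. DFR and UF3GT have means under 5 and drop out under that minimum. The number of members called moved as follows. For the mbs1-1 step it was 6, but 3 after quantile normalization, centring or leaving out both brighter arrays, and 3 to 5 with single arrays left out. At 3 h in mbs1-1 it was 1, but 2 with the minimum mean, 0 with only the compared arrays or without both brighter arrays, and 0 to 1 with single arrays out. In RNAi-MBS2/mbs1-1 at 3 h it was 1, but 0 with only the compared arrays and 0 to 1 with single arrays out. In flu at 3 h it was 3, but 4 after quantile normalization, centring, with the block or without both brighter arrays, 2 with the minimum mean or only the compared arrays, and 1 to 4 with single arrays out. For the difference of the flu response it was 1, but 3 after quantile normalization, 2 after centring, 2 with only the compared arrays, 2 without both brighter arrays, and 1 to 3 with single arrays out. For mbs1-1 it was 2, but 0 after centring, 0 with only the compared arrays or without both brighter arrays, and 0 to 2 with single arrays out. For RNAi-MBS2/mbs1-1 it was 1, but 0 with only the compared arrays or without both brighter arrays, and 0 to 1 with single arrays out. The causes of these moves were not tested.

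Same-numbered arrays correlated above 0.1 in 11 of 51 pairs, at -0.31 to 0.37, and in 2 of 17 comparisons all 3 pairs did. These are the 35S:MBS1 step (0.373, 0.114 and 0.141) and 35S:MBS1 against wild type at 0 h (0.105, 0.164 and 0.186), where the replicate block changed no member's call. In the other 15 comparisons the numbers were not taken to pair the samples. With the replicate block 2 more member results were called, DFR in the RNAi-MBS2/mbs1-1 step (0.91, adjusted p = 0.0381) and DFR in flu at 3 h (-1.06, adjusted p = 0.0372), and the number of members called was 6 in the wild type step as without it.

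Counts over all probe sets varied more in the smaller comparisons. With wild type at 0 h they ran over all settings from 8 to 130 in flu (115 in the reported fit), 5 to 10 in mbs1-1 (7), 2 to 66 in RNAi-MBS2/mbs1-1 (7) and 2 to 4 in 35S:MBS1 (4), and at 3 h from 2 to 144 in mbs1-1 (99), 13 to 113 in RNAi-MBS2/mbs1-1 (50) and 2 to 57 in 35S:MBS1 (4). For differences of responses they ran from 1077 to 2374 in flu (1912), 1 to 28 in mbs1-1 (12), 0 to 60 in RNAi-MBS2/mbs1-1 (12) and 0 to 1 in 35S:MBS1 (0). Between 35S:MBS1 and mbs1-1 the 0 h count ran from 4 to 48 (8), the 3 h count from 5 to 74 (28) and that of the responses from 2 to 101 (3), while RNAi-MBS2/mbs1-1 against mbs1-1 gave 0 to 15 before high light (1), 0 to 5 under it (2) and 0 to 4 in the responses (0).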
